A study of Homo sapiens with 8 samples.

Results

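RNA polymerase I (Pol I) and RNA polymerase III (Pol III) were represented by 27 genes in a genome-wide knockout screen for Serpin B5 protein. The set was chosen by gene function: the specific and shared subunits of both enzymes, TFIIIB and TFIIIC components, and the Pol I factors RRN3 and UBTF. All 27 were in the table, with 4 guides each, which made 108 of 77441 guides and 27 of 19114 genes. The cells were AsPC-1, a human pancreatic cancer line, stably expressing Cas9 and carrying the genome-wide Brunello guide library. At 8 days after infection they were methanol-fixed, labelled with an anti-Serpin B5 antibody and sorted into a low, a bulk and a high bin, the bulk bin taking most of the cells. Every bin came from the same infected pool, so no bin was a separate unedited control, and each bin was 1 library. A smaller screen in the same line used a library focused on transcription factors (TFs), with 1 low, 1 bulk and 1 high library and a further low and bulk pair.

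Eukaryotic cells divide transcription among 3 enzymes. Pol I makes the long ribosomal RNA precursor in the nucleolus, Pol II makes messenger RNAs, and Pol III makes 5S ribosomal RNA, transfer RNAs and other short RNAs. Pol I is brought to its promoter by RRN3 together with UBTF and the TBP-containing factor SL1, and Pol III by TFIIIB, which at many genes is itself placed by TFIIIC. POLR1C and POLR1D belong to both Pol I and Pol III, and a further group of small subunits belongs to all 3 enzymes. Guides in Brunello-type vectors are themselves transcribed by Pol III from a U6 promoter, and the level of the guide RNA was not measured. The comparison asks whether losing any of the polymerases moved cells toward low Serpin B5, or whether this was seen for Pol II alone. A guide richer in the low bin than in the high bin sat in cells with less Serpin B5 staining.

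The low, bulk and high libraries held 102155005, 96310376 and 90421905 counts. Counts were scaled to a common level, giving normalised read counts. The guide ratio was the log2 ratio of normalised counts between a pair of bins after adding 5 to each, and the gene score was the mean ratio over its guides. A score of 1 is a 2-fold difference. A gene was called when its score reached 1 in size and every retained guide had the same sign. The SD given with a score is the spread over guides of 1 gene, which share 1 library per bin, so no p-value was computed and a call says that a fold was passed. SERPINB5 itself scored 7.08 ± 1.29 (SD, n = 4 guides) for low against high and ranked 1 of 19113 scored genes, and KLF5, an epithelial transcription factor, scored 4.70 ± 1.19 and ranked 2. The AAA+ ATPases RUVBL1 and RUVBL2 scored 1.73 ± 0.59 and 1.08 ± 0.46. Among 994 non-targeting control guides, the central 95% of low against high ratios ran from -0.28 to 0.33. A gene-level reference came from 374 olfactory receptor genes, which pancreatic cells are not known to need. The central 95% of their scores ran from -0.31 to 0.26 for low against high.

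Guides against Pol I and Pol III genes were shifted toward the low bin by small amounts. The median score of the 27 genes for low against high was 0.33 on the log2 scale, beside 0.00 over all scored genes. Of the 27 scores, 23 were above 0, beside 50.3% of all genes. Only POLR1C was called as richer in the low bin, which is 1 of 27 beside 1.03% of all genes. None of the 27 was called as richer in the high bin, where 0.476% of all genes were. With the lower threshold of 0.5 (1.41-fold), 7 of 27 passed toward low, namely POLR1B, ZNRD1, POLR1C, POLR1D, POLR3B, BRF1 and RRN3, beside 2.7% of all genes. None passed 0.5 toward high, beside 1.72% of all genes. Every retained guide had a centred ratio above 0 for 13 of the 27 genes, beside 11.4% of all genes. The 13 include POLR1A and POLR3D, each with a guide that was level between low and high, at a ratio of 0.00. Every guide was richer in high for GTF3C4 and GTF3C5, 2 of 27 beside 11.2%. Against the olfactory receptor range, 18 of 27 scores lay above it, beside 8.66% of all genes. GTF3C5 alone lay below it, beside 4.48%. The shift was thus seen in most of the set, but no TFIIIC subunit was among the 18. It was under 2-fold for every gene except POLR1C.

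At the level of single guides, 106 of the 108 were retained. The others, 1 guide of POLR1B and 1 of POLR3C, had 0 counts in all 3 libraries, which allows up to 3 counts in each. Of the 106, 51 lay above the control range for low against high, beside 12.2% of all gene-targeting guides, and 9 lay below it, beside 13.6%. In 55 of 106 guides the normalised count fell in the order low, bulk, high, beside 23.5% of all gene-targeting guides. The opposite order was seen in 7, beside 23.2%.

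The same libraries can be read against the bulk bin, which both of the following comparisons share. For low against bulk, the median score of the 27 genes was 0.08, and none was called toward low (0.0785% of all genes) or toward bulk (0% of all genes). None passed 0.5 in either direction, beside 0.947% of all genes toward low and 0.0262% toward bulk. Relative to the olfactory receptor range for this comparison, -0.18 to 0.15, 12 scores lay above, beside 8.26% of all genes. None lay below, beside 2.88%. Of the 106 guides, 39 were above the control range, beside 15.2% of gene-targeting guides, and 3 were below it, beside 9.26%.

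For high against bulk, the median score was -0.23 and 23 of 27 scores were below 0, while 48.3% of all genes scored above 0. None was called toward high (0.319% of all genes) or toward bulk (0.277%). At a threshold of 0.5, 5 of 27 were richer in bulk than in high, namely POLR1B, ZNRD1, POLR1C, POLR1D and POLR3B, beside 1.31% of all genes. None passed toward high, beside 1.36%. Every guide was richer in bulk for 12 of 27, beside 9.9% of all genes, and every guide was richer in high for GTF3C1, GTF3C4 and GTF3C5, beside 10.2%. Scores of 13 genes lay below the olfactory receptor range of -0.24 to 0.27, beside 6.3% of all genes. Those of GTF3C1, GTF3C4 and GTF3C5 lay above it, beside 4.57%. Of the guides, 46 were below the control range, beside 9.32% of gene-targeting guides, and 12 were above it, beside 15.4%. The score was larger in size for high against bulk than for low against bulk in 22 of the 27 genes, beside 61.9% of all genes. Per the methods, the high bin took a smaller share of the cells than the low bin. The part of this difference in the sizes was not tested.

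The subunits common to Pol I and Pol III had the highest scores of the set. POLR1C and POLR1D form the dimer on which both enzymes are assembled. POLR1C lies on chromosome 6 (hg38, 43509702 to 43562419, plus strand) and POLR1D on chromosome 13 (27620742 to 27744237, plus strand). The 4 POLR1C guides had normalised counts of 852, 741, 1217 and 145 in the low bin, 687, 629, 1053 and 115 in bulk, and 375, 304, 739 and 59.9 in high. Every guide was most abundant in low and least abundant in high. The POLR1C score for low against high was 1.09 ± 0.25 (SD, n = 4 guides), a 2.13-fold difference that ranked 189 of 19113. Leaving out any 1 guide left it between 1.03 and 1.22.

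The POLR1D guides had 1010, 709, 785 and 904 normalised counts in the low bin, 843, 535, 572 and 977 in bulk, and 605, 267, 454 and 580 in high. High was the lowest bin for all 4, while low and bulk changed order in the last of them. The POLR1D score was 0.89 ± 0.34 (n = 4 guides), 1.85-fold, with a rank of 259. For low against bulk POLR1C scored 0.27 ± 0.05 and POLR1D 0.25 ± 0.25, and for high against bulk they scored -0.82 ± 0.22 and -0.64 ± 0.29. All 8 guides of this pair lay above the control range for low against high.

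Among the 6 Pol I subunits outside that pair, all scores for low against high were above 0, from 0.30 to 0.74, with a median of 0.52. Of their 23 retained guides, 13 lay above the control range and 0 below it. POLR1B, the second-largest catalytic subunit, had 3 retained guides with normalised counts of 1557, 2341 and 1664 in low, 1301, 2235 and 1407 in bulk, and 861, 1735 and 869 in high. All 3 guides kept the order low, bulk, high, and the score was 0.74 ± 0.27 (n = 3 guides). POLR1A, the largest subunit, which carries much of the active site, had 1681, 408, 970 and 249 normalised counts in low, 1184, 406, 897 and 166 in bulk, and 953, 304, 950 and 249 in high. Its score of 0.32 ± 0.38 came from the first pair of guides, and the last 2 had ratios of 0.03 and 0.00. POLR1A scored 0.30 ± 0.28 for low against bulk and -0.02 ± 0.45 for high against bulk. The high against bulk mean near 0 joined guides of opposite direction, with ratios of -0.31, -0.41, 0.08 and 0.57.

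The smaller Pol I subunits gave similar sizes with unequal spread. ZNRD1, now named POLR1H, is the zinc-ribbon subunit that takes part in RNA cleavage. Its guides had 1422, 774, 737 and 1002 normalised counts in low, 1269, 897, 753 and 907 in bulk, and 798, 594, 370 and 835 in high. The high bin was the lowest for all 4 guides, and the score was 0.61 ± 0.35 for low against high but 0.01 ± 0.17 for low against bulk.

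TWISTNB, now POLR1F, forms part of the stalk that meets RRN3. Its guides had 639, 309, 256 and 631 normalised counts in low, 545, 219, 276 and 537 in bulk, and 454, 73.8, 292 and 579 in high. The second guide had a ratio of 1.99 and the next -0.19, and the score of 0.61 ± 0.97 became 0.14 without the second. A single guide therefore set most of the TWISTNB value.

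CD3EAP, now POLR1G, and POLR1E form a dimer on the enzyme that resembles the Pol II factor TFIIF. The CD3EAP guides had 1263, 977, 1072 and 432 normalised counts in low, 1317, 866, 1002 and 324 in bulk, and 945, 826, 896 and 350 in high. They shared a direction in low against high with little spread, at 0.30 ± 0.08. The POLR1E guides had 938, 1210, 1123 and 1105 in low, 642, 1182, 970 and 1202 in bulk, and 474, 1293, 735 and 932 in high, for a score of 0.43 ± 0.46. The second POLR1E guide went the other way, with a ratio of -0.10.

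The Pol I initiation factors each rested on part of their guides. RRN3 (chromosome 16, 15060033 to 15094311, minus strand) links Pol I to the promoter-bound factors. Its guides had 703, 1134, 516 and 286 normalised counts in low, 386, 1161, 419 and 266 in bulk, and 220, 958, 368 and 194 in high. All 4 ratios were above 0, the first at 1.65 and the others from 0.24 to 0.55, and the score was 0.73 ± 0.63. Without the first guide the RRN3 score was 0.43. The annotation lists 4 RRN3 pseudogenes, 3 of them on the same chromosome, and whether the RRN3 guides also match these copies was not tested.

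UBTF (chromosome 17, 44205033 to 44221626, minus strand) is the HMG-box protein that coats active ribosomal DNA. Its guides had 441, 313, 1109 and 1813 normalised counts in low, 231, 205, 1150 and 1784 in bulk, and 182, 92.0, 1136 and 1491 in high. The first 2 guides had ratios of 1.26 and 1.71 and the others -0.03 and 0.28, for a score of 0.80 ± 0.82 (n = 4 guides) that ran from 0.50 to 1.08 with any 1 guide left out. The 2 guides with the large ratios were also the least abundant, with mean normalised counts of 285 and 203 beside 1132 and 1696.

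UBTF was the only gene of the set in the TF-focused library, where 8 other guides target its exons 5, 8, 9, 10, 12 and 17. There its score for low against high was 0.06 ± 0.37 (n = 8 guides), with 5 of 8 ratios above 0 and a rank of 498 of 1430 genes. The highest ratio was 0.40, for the exon 5 guide with 2080 normalised counts in low and 1576 in high. The lowest was -0.60, for the exon 8 guide with 2014 and 3063. UBTF scored -0.11 ± 0.35 for low against bulk and -0.15 ± 0.22 for high against bulk, and -0.05 ± 0.31 for low against bulk in the further pair. Centring these tables on their control guides turned the sign of the low against high score and of both low against bulk scores, to -0.00, 0.06 and 0.21. No guide reached the ratios of the first 2 genome-wide guides. In the same table POLR2A, the largest Pol II subunit, scored 0.80 ± 0.46 (n = 8 guides) and ranked 7. The central 95% of the 49 control guides there ran from -1.22 to 1.39, and every UBTF ratio lay inside it. The POLR2A score lay inside that wide range too, with guide ratios from 0.13 to 1.75, so the range does not set UBTF apart from POLR2A.

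The 10 Pol III subunits outside the shared pair scored from -0.09 to 0.65, with a median of 0.31, and 9 of 10 were above 0. Of their 39 retained guides, 19 lay above the control range for low against high and 2 below it. POLR3B, the second-largest catalytic subunit, was the highest. Its guides had 805, 696, 513 and 1186 normalised counts in low, 884, 565, 486 and 1038 in bulk, and 578, 424, 357 and 634 in high. High was the lowest bin for every POLR3B guide, and the score was 0.65 ± 0.19 for low against high, 0.11 ± 0.18 for low against bulk and -0.54 ± 0.14 for high against bulk.

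POLR3A, the largest subunit and the partner of POLR3B in the active site, scored lower. Its guides had 545, 510, 597 and 955 normalised counts in low, 377, 398, 549 and 863 in bulk, and 428, 325, 504 and 888 in high. Low was the highest bin for all 4, with a score of 0.33 ± 0.23 for low against high and 0.29 ± 0.19 for low against bulk. For high against bulk POLR3A scored -0.05 ± 0.20, with guide ratios from -0.29 to 0.18. In both enzymes the second-largest subunit thus scored above the largest for low against high. Guides are not replicates of a bin, and the difference was not tested.

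POLR3D and POLR3E form the dimer of Pol III that resembles TFIIF. POLR3D guides had 508, 1411, 531 and 742 normalised counts in low, 549, 1406, 427 and 711 in bulk, and 508, 983, 313 and 486 in high. The first guide was level between low and high and the others were lowest in high, for 0.47 ± 0.33. POLR3E guides had 1421, 2051, 1141 and 1441 in low, 1119, 1571, 1076 and 1396 in bulk, and 799, 1474, 812 and 1443 in high, for 0.45 ± 0.34. The last POLR3E guide was level between low and high, at a ratio of -0.00.

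POLR3C, POLR3F and either POLR3G or POLR3GL make up the trimer through which Pol III meets TFIIIB. POLR3F guides had 718, 923, 1355 and 1023 normalised counts in low, 633, 970, 1137 and 1053 in bulk, and 484, 695, 887 and 832 in high, for a score of 0.47 ± 0.14 with every high count the lowest. The 3 retained POLR3C guides had 583, 765 and 704 in low, 651, 782 and 695 in bulk, and 600, 714 and 482 in high. The last of these carried most of the difference, and the score was 0.20 ± 0.30 (n = 3 guides).

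POLR3G and POLR3GL are alternative forms of the same subunit, so cells can hold either version of the enzyme. POLR3G guides had 1386, 530, 700 and 732 normalised counts in low, 1379, 585, 789 and 699 in bulk, and 1466, 567, 892 and 659 in high. Its score of -0.09 ± 0.20 was the only one below 0 among the Pol III subunits. POLR3GL guides had 1168, 2191, 375 and 1566 in low, 1094, 2389, 403 and 1773 in bulk, and 981, 2051, 355 and 1568 in high, for 0.11 ± 0.11. Both scores lay inside the olfactory receptor range.

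POLR3K is the small subunit for RNA cleavage and termination, and CRCP is part of the stalk. POLR3K guides had 1725, 790, 1531 and 1705 normalised counts in low, 1675, 768, 1535 and 1512 in bulk, and 1459, 681, 1229 and 1313 in high. All 4 moved together by a small amount, for 0.29 ± 0.07. CRCP guides had 1414, 925, 939 and 480 in low, 1469, 921, 886 and 592 in bulk, and 1368, 722, 599 and 732 in high. Its ratios ran from -0.60 to 0.64, so the score of 0.11 ± 0.53 stood for guides that moved in opposite directions.

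The TFIIIB components scored above 0. BRF1, which is related to TFIIB, had guides with 2354, 1459, 1504 and 1465 normalised counts in low, 1890, 1434, 1215 and 1203 in bulk, and 1472, 1045, 793 and 1242 in high. Low was the highest bin for every BRF1 guide, and the score was 0.58 ± 0.29 for low against high, 0.23 ± 0.14 for low against bulk and -0.35 ± 0.28 for high against bulk. BDP1, the SANT-domain component, had 749, 912, 673 and 2155 in low, 592, 945, 698 and 2040 in bulk, and 328, 894, 785 and 1799 in high. Its first guide had a ratio of 1.18 and another -0.22, and the score of 0.31 ± 0.61 was 0.02 without the first.

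TFIIIC, which recognises the internal promoters of transfer RNA genes, had scores near or below 0. Its 5 subunits had a median score of -0.22 for low against high and 0.29 for high against bulk, and 3 of 5 were below 0 in low against high. Of 20 guides, 2 lay above the control range for low against high and 7 below it, and for high against bulk 10 lay above and 2 below. GTF3C5, which binds the A box, had guides with 1385, 1201, 2920 and 2535 normalised counts in low, 1486, 1518, 2656 and 2485 in bulk, and 1871, 1933, 3016 and 3145 in high. High was the highest bin for all 4 guides, and the score was -0.37 ± 0.27, the lowest of the 27, with a rank of 18494. Leaving out any 1 guide kept it between -0.48 and -0.26.

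GTF3C4, a subunit with acetyltransferase activity, and GTF3C1, the largest subunit and the B box binder, went the same way. The GTF3C4 guides had 1579, 1312, 2259 and 619 normalised counts in low, 1557, 1243, 2125 and 562 in bulk, and 2208, 1338, 2704 and 678 in high. Low and bulk were nearly level and high was above both, with scores of -0.22 ± 0.20 for low against high, 0.08 ± 0.05 for low against bulk and 0.31 ± 0.17 for high against bulk. The GTF3C1 guides had 1191, 2183, 437 and 1507 in low, 1056, 2140, 491 and 1393 in bulk, and 1100, 2729, 660 and 1746 in high. GTF3C1 scored -0.25 ± 0.29 for low against high and 0.29 ± 0.16 for high against bulk. GTF3C4 (132670035 to 132694953, plus strand) and GTF3C5 (133030675 to 133058503, plus strand) are near neighbours on chromosome 9, and GTF3C1 is on chromosome 16.

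The other TFIIIC subunits were mixed. GTF3C2 guides had 1025, 483, 1028 and 231 normalised counts in low, 808, 452, 972 and 275 in bulk, and 1265, 472, 743 and 203 in high, with ratios from -0.30 to 0.47 and a score of 0.10 ± 0.32. GTF3C3 guides had 798, 1239, 1054 and 1391 in low, 777, 1337, 905 and 1322 in bulk, and 676, 1275, 762 and 1458 in high, for 0.15 ± 0.25. Neither gene's guides shared a sign. The difference between TFIIIC and the other groups was not tested, since both rest on the same 3 libraries.

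Other Pol I and Pol III genes, outside the 27, gave a wider range. Of 17 such partners, 11 scored above 0 for low against high, beside 50.3% of all genes. Their median was 0.27, and 1 was called, beside 1.03% of all genes. This was TBP, the TATA-binding protein that serves all 3 enzymes, with guides at 3363, 1602, 497 and 499 normalised counts in low, 2495, 1613, 304 and 356 in bulk, and 2042, 1259, 177 and 166 in high. The TBP score was 1.02 ± 0.59. GTF3A, the 5S RNA gene factor TFIIIA, came next at 0.79 ± 0.83, with guides that ranged from -0.25 to 1.72. In the TF-focused table GTF3A scored 0.17 ± 0.68 (n = 7 guides) for low against high. There 4 of 7 ratios were above 0, and the rank was 343 of 1430 genes. The lowest were SNAPC2 at -0.60 ± 0.25 and SNAPC3 at -0.57 ± 0.69, subunits of the complex that serves small nuclear RNA promoters.

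Pol II subunits had larger scores than the 27 genes under the same scoring. The 7 subunits specific to Pol II had a median of 1.76 for low against high, 0.94 for low against bulk and -0.99 for high against bulk. Of the 7, 5 were called toward low in low against high, beside 1.03% of all genes. The called ones were POLR2A, POLR2C, POLR2D, POLR2G and POLR2J, with scores of 1.74 ± 0.83, 2.30 ± 1.86, 1.60 ± 0.78, 1.68 ± 1.30 and 1.94 ± 1.99. POLR2I, not called because its guides did not share a sign, scored 2.04 ± 1.97. The lowest Pol II score, 1.60, was above the highest score of the 27, 1.09 for POLR1C. Leaving out any 1 guide kept these Pol II subunits at 1.19 or above, except POLR2J, which fell as low as 1.02. Guides of POLR2A and POLR2J had low counts, with gene means of 86.8 and 184 normalised counts. The 5 small subunits that all 3 enzymes hold had a median of 1.31, and 3 of 5 were called, beside 1.03% of all genes. The called ones were POLR2F at 2.60 ± 1.49, POLR2L at 2.23 ± 0.51 and POLR2K at 1.31 ± 0.68. POLR2E and POLR2H scored 1.07 ± 0.94 and 0.91 ± 0.63. The medians thus ran from 0.31 for Pol III subunits through 0.52 for Pol I, 0.99 for the pair shared by both and 1.31 for those in all 3 enzymes to 1.76 for Pol II. The spread over guides was wide in the Pol II lists, and the differences between lists were not tested.

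A further comparison used 4 genes linked to the 5S RNP, which carries the Pol III product 5S RNA into the ribosome. RPL5 and RPL11 are its proteins, which are also ribosomal proteins, and RRS1 and RPF2 are its assembly factors. The 4 genes had a median of 1.46 for low against high. RPL11 at 2.41 ± 1.27 and RPF2 at 1.5 ± 0.30 were called, beside 1.03% of all genes. RPL5 scored 1.42 ± 1.06 with 1 guide below 0, and RRS1 scored 0.71 ± 0.29. Each score of the 27 except those of POLR1C, POLR1D, POLR1B, RRN3 and UBTF was below that of RRS1.

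Abundance moved with these differences. The 106 guides had a median mean normalised count of 904 over the 3 libraries, beside 1058 for all gene-targeting guides and 2359 for the control guides, and 65 of 106 were below the gene-targeting median. By list, the median over genes was 526 for Pol II subunits, 579 for the subunits of all 3 enzymes and 632 for the pair shared by Pol I and Pol III. It was 636 for the genes linked to the 5S RNP, 690 for RRN3 and UBTF, 860 for Pol I and 879 for Pol III. The partners had 1061, TFIIIB 1235 and TFIIIC 1386, beside 1132 for all genes. Lists with fewer counts thus tended to have the higher scores, but not in strict order. The genes linked to the 5S RNP had a median score of 1.46 beside 0.99 for the shared pair, at similar counts. TFIIIB had 0.44 beside 0.31 for Pol III subunits, with more counts. The part of abundance in the scores was not tested. No library from before infection or from an early time was analysed, so loss of cells after knockout and a low starting number of guide copies cannot be told apart. Less abundant guides also vary more by counting, and the olfactory receptor guides, with a median of 1176, were nearer to the 27 genes in abundance than the non-targeting guides were.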

How the data were processed

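Guide counts were read for 3 genome-wide and 5 TF-focused libraries. Per the labels and methods, guides were amplified from genomic DNA of sorted cells, and the deposited values are unnormalised read counts for each guide, with no molecular identifiers stated. The methods name MAGeCK for the screens, which was not used here. Reads are PCR copies, so counts understate the error.

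Here Python 3.11.15, pandas 2.3.3 and NumPy 2.4.6 were used. Libraries were scaled by median-ratio size factors. Guides with a mean normalised count under 30 were left out. Ratios used a pseudocount of 5 with the median over gene-targeting guides set to 0, and genes needed 2 guides. No test was run, because each bin was 1 library and guides of a gene are not replicates of a bin. The scoring was tested on simulated data. Positions are from GENCODE on hg38, through current symbols where a name had changed.

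All 27 genes were named. From each compared list, the 2 highest and 2 lowest scores for low against high and all called genes were named. The members and lists were chosen with earlier results of these data known. The olfactory receptor reference, the scores without each guide and the settings of the TF-focused tables were chosen after seeing the data. The library titled as TF-focused high has a description that says bulk and was taken as high. The further pair is labelled with a genome-wide genotype although it carries the TF-focused guides. Guide sequences were not analysed here.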

Additional observations from a re-analysis of the deposited data

How the results depend on the processing

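No paired analysis was possible because each bin was 1 library, and leaving out a library would end its comparison. The alternatives were total-count scaling, centring on control guides or within 5 abundance classes, pseudocounts of 1 and 20, no count filter or one of 100, median, summed-count or trimmed gene scores, a threshold of 0.5, no sign rule, and low against bulk plus high. The median score of the 27 genes ranged from 0.25 to 0.35 for low against high, from 0.04 to 0.10 for low against bulk and from -0.24 to -0.19 for high against bulk. POLR1C was the single call for low against high except at the threshold of 0.5, with 7 calls, and in low against bulk plus high, with 0 calls, where it scored 0.63. For high against bulk the threshold of 0.5 gave 5 calls in place of 0. With the range of olfactory receptor guides in place of non-targeting guides, a choice made after seeing the data, 41 guides were richer in low and 3 in high for low against high (51 and 9 with non-targeting guides). The same change gave 24 richer in low and 1 in bulk for low against bulk (39 and 3), and 3 richer in high and 29 in bulk for high against bulk (12 and 46). The olfactory receptor guide range was wider in each comparison, from -0.53 to 0.47 for low against high. The shares of all gene-targeting guides given for the non-targeting range therefore do not apply to these counts. No background share is given beside them, so they show only how the counts changed with the reference. Over all genes, calls for low against high were 197 and 91, which became 517 and 329 at 0.5 and 87 and 17 for low against bulk plus high. Without the guide of largest ratio, the median of RRN3 and UBTF was 0.46 in place of 0.77. Centring the TF-focused table on its control guides took the UBTF score for low against high from 0.06 to -0.00, for low against bulk from -0.11 to 0.06, and for low against bulk in the further pair from -0.05 to 0.21. The causes were not tested. With 1 library per bin, the spread between libraries was not measured.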

Other observations

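The SNAPc subunits and BRF2, which act at small nuclear RNA promoters such as that of U6, stood apart from the other partners in a split made after the values were seen. All 6 scored below 0 for low against high, from -0.60 to -0.38, and above 0 for high against bulk, from 0.18 to 0.61. The 0.18 of BRF2 lay inside the olfactory receptor range of -0.24 to 0.27. The other 11 partners all scored above 0 for low against high, with a median of 0.45, and below 0 for high against bulk. They include TBP, which serves all 3 enzymes, at 1.02 ± 0.59 for low against high. The TFIIIB component BDP1 also scored above 0 there, at 0.31 ± 0.61. Over all genes, 50.3% scored above 0 for low against high and 48.3% for high against bulk. For low against bulk the 6 scored from -0.20, for BRF2, to 0.15, with 4 of 6 above 0. The guides of SNAPC3 had 327, 355, 802 and 433 normalised counts in low, 340, 360, 780 and 396 in bulk, and 497, 927, 645 and 678 in high. The high bin was the highest for 3 of these 4 guides.

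SNAPC4, named here after its values were seen, differed between the libraries. It scored -0.45 ± 0.59 (SD, n = 4 guides) for low against high in the genome-wide table. In the TF-focused table it scored 0.71 ± 0.53 (n = 7 guides), with 7 of 7 ratios above 0, from 0.11 to 1.57. TTF1, the Pol I termination factor, scored 0.77 ± 0.30 and 0.55 ± 0.21 (n = 6 guides) in the same order, above 0 in both. The difference between the tables was not tested.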
